A study of Mus musculus with 2 samples.

Results

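The genes described here are 42 genes of fatty acid uptake, storage and mitochondrial beta-oxidation, measured by long-read RNA sequencing in the gastrocnemius muscle of the mouse calf. They were taken by gene symbol from 15622 annotated genes with a read. The rule used no measured value, but the list was drawn up with earlier results of these data known. The samples were whole muscle of male B6CASTF1/J mice, an F1 cross of C57BL/6J with CAST/EiJ, at 25 days of age and without any treatment. The study holds 1 group of 2 biological replicates, with 2 µg of total RNA per library and spike-in RNA added. The labels give each replicate its own tissue sample but point to 1 donor record, so values were compared only between the libraries, and p-values measure counting error rather than the spread between animals. No condition was compared. All 42 genes had reads in both libraries.

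Fatty acids reach a muscle fibre from lipoproteins cut at the vessel wall or from albumin, cross the membrane with the help of transporters, and are bound in the cytosol by small binding proteins. Activated to acyl-CoA, they are either stored as triglyceride in lipid droplets or carried into mitochondria as carnitine esters. There each turn of the beta-oxidation spiral removes an acetyl-CoA, and the electrons pass through electron transfer flavoprotein to the respiratory chain. Oxidative fibres are known for higher activity of this route than fast glycolytic ones.

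Replicate 1 held 1215785 reads in annotated genes and replicate 2 held 1549606. A level in CPM is a gene's count per 1000000 of such reads. A long read was counted as 1 whatever its length, so CPM was not divided by length. Whether the yield of reads depends on length was not tested, so ratios between genes are ratios of reads. A count of 0 allows up to 2.47 CPM in the first library and 1.94 in the second, for counting error alone. The 9 muscle fibre markers were all present and summed to 331905 and 178672 CPM, while 3 liver markers had no read. Much of that drop lay in Atp2a1, the calcium pump of fast fibres, with 151516 and 23536 CPM; of the other 8, Ckm had 68718 and 69403 CPM and did not pass the test described below, Tnnt3 rose from 1964 to 3915, and 6 were lower. Markers of other cells in the muscle were read in the same way. Fibroblast markers (5 of 5 with reads in both libraries) summed to 4567 and 900 CPM, erythroid markers (5 of 5) to 393 and 638, endothelial markers (9 of 9) to 138 and 130, macrophage markers (6 of 7) to 77.3 and 69.7, and adipocyte markers (5 of 7, with Lep at 0 in both libraries) to 22.2 and 23.9. The muscle fibre, fibroblast and erythroid sums moved between the libraries, and their part in the differences below was not tested.

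The 42 genes summed to 7786 CPM in replicate 1 and 8482 in replicate 2, a mean of 8134 ± 492 (SD, n = 2), from 9466 and 13144 reads. One gene carried much of this. Fabp3, the heart-type fatty acid binding protein of muscle, stood first in both libraries with 1188 and 2765 CPM, or 15.3% and 32.6% of all reads of the group. Without it the sum was 6598 and 5717 CPM, so replicate 2 had the higher sum only with the reads of Fabp3 included. Acot13 also rose, from 109 to 569 CPM, with 580 of its 882 reads in replicate 2 on a model of 1 base described below. On annotated transcripts alone, scaled to annotated reads, the order of the sums turned, with 10049 CPM in replicate 1 and 9314 in replicate 2. The median gene of the group had a mean level of 113 CPM, against 16.6 CPM over all 8692 genes tested. The lowest were Lipe, Cpt1a, Acot2, Dgat1 and Plin3. In bulk tissue, a lower level can mean fewer cells of a type or less RNA per cell, and these cannot be told apart.

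**Figure D1:**
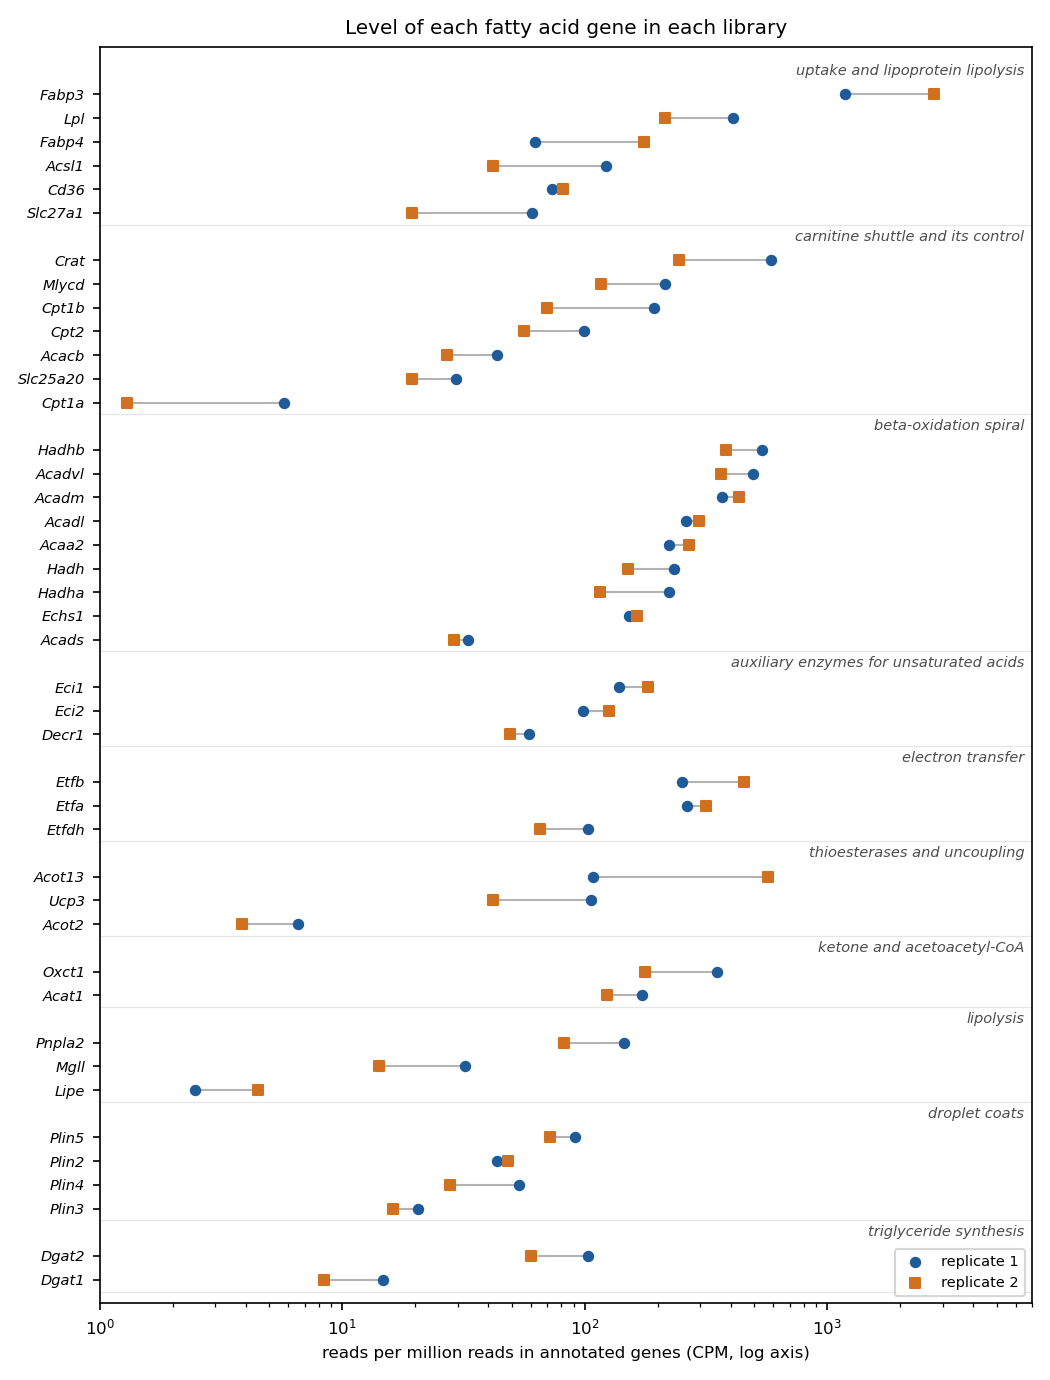
Level of each of the 42 genes in replicate 1 (circles) and replicate 2 (squares), in CPM on a log axis, grouped by role. Fabp3 lies to the right of all others in both libraries, and Cpt1a, Lipe and Acot2 lie below 10 CPM in both.

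Between the libraries, 41 genes had the 10 reads needed for a test. Of these, 8 were higher in replicate 2 (17.0% of all genes tested were called in this direction). Another 19 were lower (26.3% of all genes) and 14 did not pass. The test was a two-sided Fisher exact test with Benjamini-Hochberg adjustment over 8692 genes at a threshold of 0.05. With 20 or more reads required, 8 of 39 members were higher and 20 lower, beside 21.8% and 31.1% of all genes. The part of read depth in these counts was not tested. The median log2 ratio of replicate 2 over replicate 1 (on CPM + 1) was -0.49 over the members and -0.27 over all genes. TMM scaling, which brings the median of all genes to -0.023, gave 11 higher (21.6% of all genes) and 14 lower (16.5%). DESeq2 size factors gave 11 higher (22.3% of all genes) and 11 lower (16.2%). For 32 of the 42 genes (76.2%) the libraries lay within 2-fold. Of the called genes, 3 rose by more than 2-fold (Fabp3, Fabp4 and Acot13) and 6 fell by more than 2-fold (Crat, Cpt1b, Acsl1, Ucp3, Slc27a1 and Mgll). With an assumed biological coefficient of variation of 0.2 in edgeR's exact test, 8 of these 9 remained past the threshold, all but Mgll. Those were 3 higher and 5 lower, beside 5.98% and 9.49% of all genes. With 0.4, none of the 41 passed (1 at an unadjusted p under 0.05), beside 0.069% higher and 0.023% lower of all genes. Under both scalings Acadvl, Etfdh, Acat1, Mgll and Plin4 lost their call as lower, and Acadl, Echs1 and Eci2 were called higher. Hadhb, Hadh and Dgat2 lost their call as lower under DESeq2 scaling and not under TMM. On annotated transcripts alone Slc27a1 lost its call as lower, and Acaa2, Eci1 and Etfa lost theirs as higher. Acadm turned from higher to lower there, and Acacb, Acadl, Acads, Dgat1 and Plin5, which did not pass over all reads, were called lower. In that setting 13.4% of all genes were called higher and 37.6% lower.

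The direction went with transcript length. The 8 higher genes had a most-read annotated transcript of 721 to 2047 nt (median 1016.5), and 18 of the 19 lower ones, those with reads on an annotated transcript, 1789 to 4115 nt (median 2677.5). Across 40 members, Spearman's rho between length and log2 ratio was -0.70. Across 8209 genes it was -0.59, so genes at large showed the same sign. The points of each correlation share both libraries and are not independent. The part of length in the differences between the libraries was not tested.

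**Figure D2:**
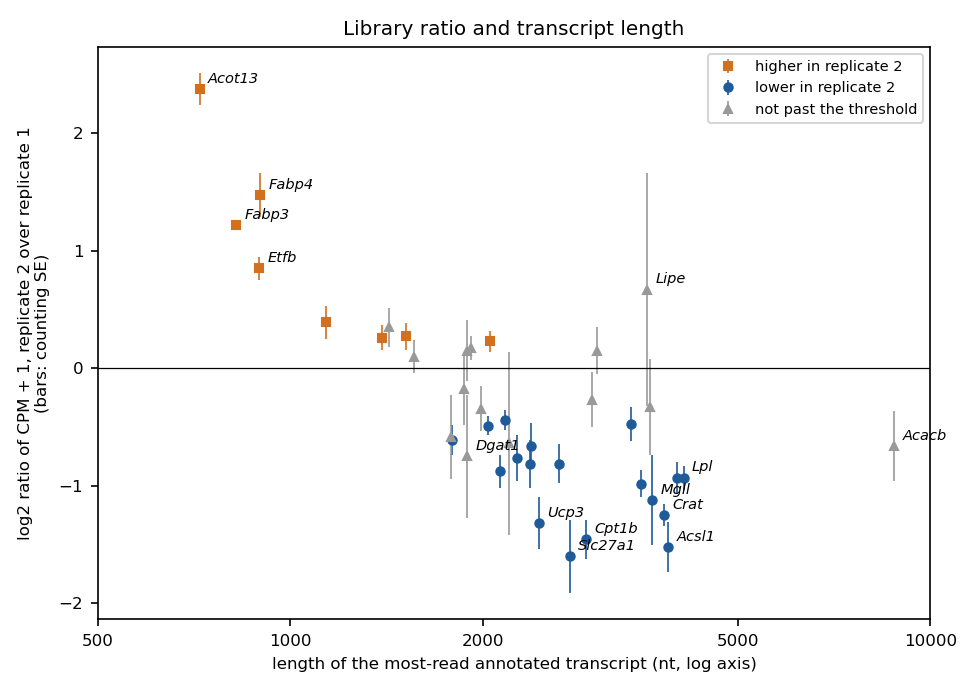
Log2 ratio of each member, replicate 2 over replicate 1 (bars: counting SE), against the length of its most-read annotated transcript on a log axis. The genes higher in replicate 2 lie at 2047 nt or less, and the 6 that fell by more than 2-fold lie to the right of them.

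Uptake genes went in both directions. Fabp3 (chr4:130308595-130315463, mm10) rose from 1188 to 2765 CPM, a log2 ratio of 1.22 ± 0.04 (counting SE; adjusted Fisher p = 9.57e-189). Fabp4, the binding protein of adipocytes and capillary endothelium, rose from 62.5 to 176 CPM (log2 1.47 ± 0.19; adjusted Fisher exact p = 1.70e-16). On annotated transcripts alone the log2 ratio of Fabp4 was 0.89 (adjusted Fisher exact p = 0.0395). The heart-type gene exceeded the adipocyte-type gene 19.0-fold in replicate 1 (exact 95% interval 15.1 to 24.3) and 15.8-fold in replicate 2 (13.9 to 17.9). Fabp4 had 76 and 272 reads; of the 7 adipocyte markers, Cfd had 18 and 21 reads and the other 6 had 4 or fewer in each library, with Adipoq at 3 and 3 and Plin1 at 2 and 4. Of the 9 endothelial markers, Egfl7 was higher (25.5 and 45.2 CPM), Tie1 lower (17.3 and 6.45 CPM) and 7 did not pass. The part of these cells in the level of Fabp4 was not tested. Lpl, lipoprotein lipase, which frees fatty acids from circulating triglyceride, fell from 410 to 214 CPM (log2 -0.93 ± 0.10). Slc27a1, the transporter FATP1, fell from 60.9 to 19.4 CPM, and Acsl1, the main long-chain acyl-CoA synthetase, from 123 to 41.9 CPM. Cd36, the fatty acid translocase, had 73.2 and 81.3 CPM and did not pass the test.

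Of the 6 tested genes of the carnitine shuttle and its control, 4 were lower in replicate 2 (26.3% of all genes) and none was higher (17.0% of all genes), and the 7 genes summed to 1174 and 536 CPM. Cpt1b, the muscle form of the outer-membrane transferase that sets the rate of entry, fell from 193 to 69.7 CPM (log2 -1.46 ± 0.17; adjusted Fisher exact p = 1.10e-18). Its liver form Cpt1a had 7 and 2 reads, too few to test, and the muscle form exceeded it 33.6-fold (exact 95% interval 16.0 to 84.4) and 54.0-fold (14.6 to 452). Cpt2, the inner-membrane partner, fell from 99.5 to 56.1 CPM. Slc25a20, the carnitine-acylcarnitine carrier, had 29.6 and 19.4 CPM and did not pass. Crat, carnitine acetyltransferase, which buffers acetyl-CoA, had the highest CPM of the shuttle genes and fell from 586 to 246 CPM (log2 -1.25 ± 0.09; adjusted Fisher exact p = 1.50e-43). Of the pair that sets malonyl-CoA, the inhibitor of Cpt1b, the remover Mlycd fell from 215 to 117 CPM, while the maker Acacb had 43.6 and 27.1 CPM and did not pass (adjusted Fisher exact p = 0.0523). Acacb was called lower, however, on annotated transcripts alone (log2 -2.38), without incomplete and genomic reads (-3.01), without those of a single exon (-1.62), and when only genes with 20 or more reads were tested.

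The 9 genes of the spiral itself summed to 2530 and 2206 CPM, and members went both ways: 2 were higher and 4 lower (17.0% and 26.3% of all genes), and 3 did not pass the test. The first step is shared among acyl-CoA dehydrogenases of different chain length. Acadvl, for very long chains, had 495 and 365 CPM and was lower; Acadm, for medium chains, had 369 and 433 and was higher; Acadl, for long chains, had 262 and 295 and did not pass. The short-chain enzyme Acads had 32.9 and 29.0 CPM, so Acadvl exceeded it 15.1-fold (exact 95% interval 10.9 to 21.3) and 12.6-fold (9.26 to 17.4). Echs1, the short-chain hydratase, had 153 and 164 CPM and did not pass. Hadh, the short-chain hydroxyacyl-CoA dehydrogenase, fell from 233 to 152 CPM. Acaa2, the mitochondrial thiolase, rose from 223 to 269 CPM.

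Hadha and Hadhb encode the subunits of the trifunctional protein, which carries out the later steps on long chains as a complex of equal parts. Their genes lie head to head on chromosome 5, with Hadha starting at 30155162 on the minus strand and Hadhb starting at 30155248 on the plus strand. Hadhb had 540 and 384 CPM and Hadha 223 and 116 CPM, and both fell. The ratio of Hadhb to Hadha reads was 2.42 in replicate 1 (exact 95% interval 2.10 to 2.80) and 3.31 in replicate 2 (2.79 to 3.93). The gene with the shorter transcript (2033 against 4017 nt for the most-read forms) thus had more reads in each library. The 85 bases between the gene starts annotated in GENCODE M21, chr5:30155163-30155247, are shown because they separate the 2 genes. Their letters are from the RefSeq promoter table (GRCm38.p6), plus strand, with 2 matches to the GC box GGGCGG in capitals. The windows of that table, 30154931-30155230 for Hadha and 30155003-30155302 for Hadhb, are set on other start positions.

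Hadha-Hadhb: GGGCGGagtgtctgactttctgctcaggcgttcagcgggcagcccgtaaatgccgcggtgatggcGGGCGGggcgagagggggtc

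This stretch has 69.4% G and C and holds no CCAAT and no TATAAA on either strand. Over 32851 RefSeq promoters, the 85 bases before the start held GGGCGG in 22.8%, CCAAT in 16.4% and TATAAA in 4.96%. A match is a description of letters, not of a bound site.

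The enzymes that fit unsaturated acids into the spiral summed to 297 and 358 CPM. Eci1, an enoyl-CoA isomerase, rose from 139 to 183 CPM. Its paralogue Eci2 had 98.7 and 126 CPM and Decr1, the dienoyl-CoA reductase, 59.2 and 49.0 CPM, and neither passed. In electron transfer, the flavoprotein subunits Etfb and Etfa both rose. Etfb went from 252 to 455 CPM (log2 0.85 ± 0.10; adjusted Fisher exact p = 8.27e-18) and Etfa from 263 to 316 CPM, while Etfdh, the membrane dehydrogenase that takes their electrons, fell from 104 to 65.2 CPM. The subunits form a heterodimer, and the ratio of Etfb to Etfa reads was 0.96 (exact 95% interval 0.81 to 1.12) in replicate 1 and 1.44 (1.28 to 1.62) in replicate 2.

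Ucp3, the muscle uncoupling protein whose level is known to follow fatty acid supply, fell from 106 to 41.9 CPM (log2 -1.32 ± 0.22). Acot2, a mitochondrial acyl-CoA thioesterase, had 8 and 6 reads and is uncertain because its near-identical neighbour Acot1 had 3 and 3. Oxct1, which starts the use of ketone bodies, fell from 350 to 177 CPM, and Acat1, the acetoacetyl-CoA thiolase, from 173 to 124 CPM.

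Genes of storage had lower sums than the 2530 and 2206 CPM of the 9 spiral genes, but in smaller groups. The sums were 179 and 101 CPM for the 3 genes of lipolysis, 209 and 164 for the 4 droplet coats and 118 and 68.4 for the 2 genes of triglyceride synthesis. Among lipases, Pnpla2, the adipose triglyceride lipase that makes the first cut, fell from 145 to 82.0 CPM. Lipe, the hormone-sensitive lipase that follows it, had 3 and 7 reads, and Pnpla2 exceeded it 58.7-fold (exact 95% interval 19.7 to 287) and 18.1-fold (8.55 to 46.0). Mgll, the monoglyceride lipase, fell from 32.1 to 14.2 CPM. Of the droplet coats, Plin5, which tethers droplets to mitochondria in oxidative tissue, led with 91.3 and 71.6 CPM, Plin2 had 43.6 and 48.4, and Plin3 had 20.6 and 16.1; none of these passed. Plin4 fell from 53.5 to 27.7 CPM. Of the acyltransferases that finish triglyceride synthesis, Dgat2 fell from 103 to 60.0 CPM, Dgat1 had 14.8 and 8.39 CPM without passing, and the ratio of Dgat2 to Dgat1 reads was 6.94 (exact 95% interval 4.22 to 12.1) and 7.15 (3.99 to 13.9).

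The transcript class of each read gives how its model matched the annotation. Annotated transcripts took 85.0% of member reads in replicate 1 (exact 95% interval 84.2 to 85.7) and 77.5% in replicate 2 (76.8 to 78.2). Over all genes they took 65.8% and 70.6%. Fabp3, with 15.3% and 32.6% of member reads, had 97.6% and 97.5% of its reads on annotated transcripts. Across the 38 members with 20 or more reads per library, the median share was 84.4% and 69.0%. Of the annotated member reads, 99.7% and 99.5% were on protein-coding transcripts. Incomplete splice matches, which hold part of an annotated intron chain, took 8.53% and 12.5%, and 82.9% and 75.0% of these were suffixes, which hold the 3′ end of the chain. Genomic models, which are unspliced or read into introns, took 1.66% and 7.00% (2.30% and 6.86% over all genes), and models of 10 nt or less held 25 of the 157 and 639 of the 920 reads of this class. New combinations of annotated splice sites (NIC) took 2.62% and 1.43%, and chains with an unannotated splice site (NNC) 2.24% and 1.56%; over all genes, NNC chains took 17.3% and 4.28%.

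Reads within a single exon were more frequent in replicate 2 for most members. Incomplete or genomic models of 1 exon took 280 of the 9466 reads (2.96%) and 1309 of the 13144 (9.96%), or 258 and 729 reads without Acot13. Their share was higher in replicate 2 in 33 of the 37 members with 20 or more reads per library and an annotated multi-exon transcript with reads (89.2%), as in 82.4% of 3626 such genes. The median share was 2.68% and 7.92% over those members, and 2.33% and 8.26% over all such genes.

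**Figure D3:**
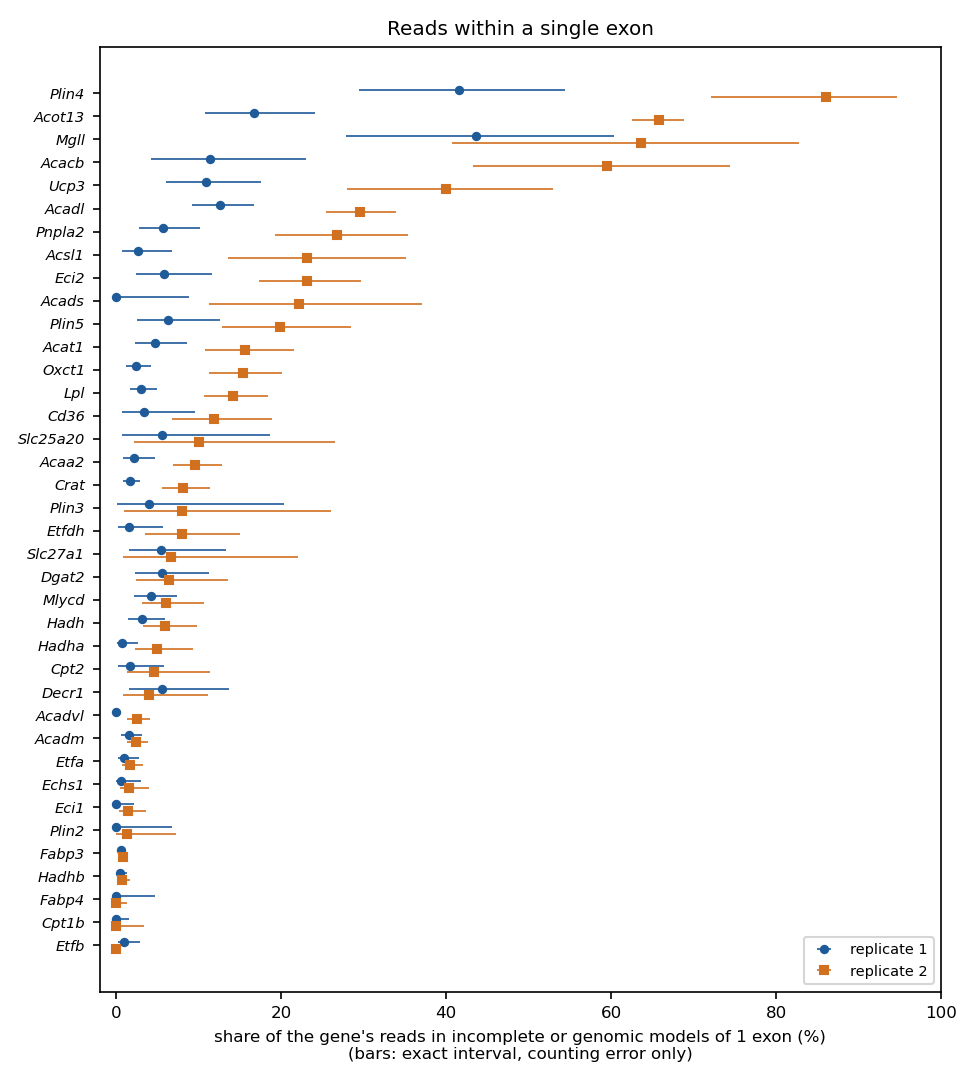
Share of the reads of each member that fell in incomplete or genomic models of 1 exon, in replicate 1 (circles) and replicate 2 (squares), for members with 20 or more reads in each library; bars are exact 95% intervals. Acot13 moves from 16.7% to 65.8%, while Fabp3, Fabp4, Cpt1b, Etfb and Hadhb stay at 1% or less in replicate 2.

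Acot13, a small mitochondrial thioesterase (chr13:24817948-24831540), had the most such reads. Its level was 109 and 569 CPM (132 and 882 reads; log2 2.38). In replicate 2, 580 of the 882 reads were assigned to a genomic model that is 1 base long and lies at the gene's 3′ end, at position 24817948. In replicate 1, 22 of 132 reads were on an incomplete model of its last exon alone (244 nt). The annotated transcript Acot13-201 had 108 and 297 reads. Without single-exon incomplete and genomic reads the log2 ratio was 1.22, and on annotated transcripts alone it was 1.00, past the threshold in each case.

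Other members also had many reads on models of the 3′ end alone or on genomic models. Acadl had 40 and 135 reads on its last exon alone (689 nt), which were 12.6% and 29.5% of its reads, and annotated reads of 237 and 215. Its log2 ratio was 0.17 over all reads, which did not pass, and -0.59 on annotated transcripts alone, which was called lower (adjusted Fisher exact p = 6.29e-05). Acadm had 42 and 170 reads on a model of its last 2 exons (649 nt), and on annotated transcripts its call turned from higher to lower (log2 -0.25, adjusted Fisher exact p = 0.0305). Cd36 had 20 and 62 reads on models of its last 2 exons, which were 1825 nt long in replicate 1 and 1146 nt in replicate 2, against 33 and 27 on annotated transcripts, and its log2 ratio was 0.15 over all reads and -0.72 on annotated ones. Fabp4 differed from these in that its incomplete reads were frequent in both libraries: 43 of 76 and 162 of 272 reads spanned only its last 2 exons, and 19 and 49 were on annotated transcripts. Plin4 had no read on an annotated transcript, and single-exon models took 27 of its 65 and 37 of its 43 reads, 26 of them on a genomic model of 2040 nt in replicate 1 and all 37 on one of 17 nt in replicate 2. What set these ends was not tested.

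For isoforms, the transcript with most reads was compared outside the incomplete and genomic classes in the 34 members with 20 or more such reads per library. It held over 80% in both libraries in 26 of them, as with Fabp3-201, Acot13-201, Oxct1-201 and Hadh-201. None of the 34 changed its share between the libraries by Fisher's exact test with Benjamini-Hochberg adjustment over 3036 genes, of which 2.08% were called. At an unadjusted p under 0.05 there were 4 of the 34 members, beside 247 of the 3036 genes. The 4 were Plin5, Acadm, Hadha and Acadl, of which Plin5 had the smallest adjusted p, 0.247 by the Fisher exact test. Plin5-201 held 85.4% (exact 95% interval 76.7 to 91.8) and 68.8% (57.3 to 78.9).

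**Figure D4:**
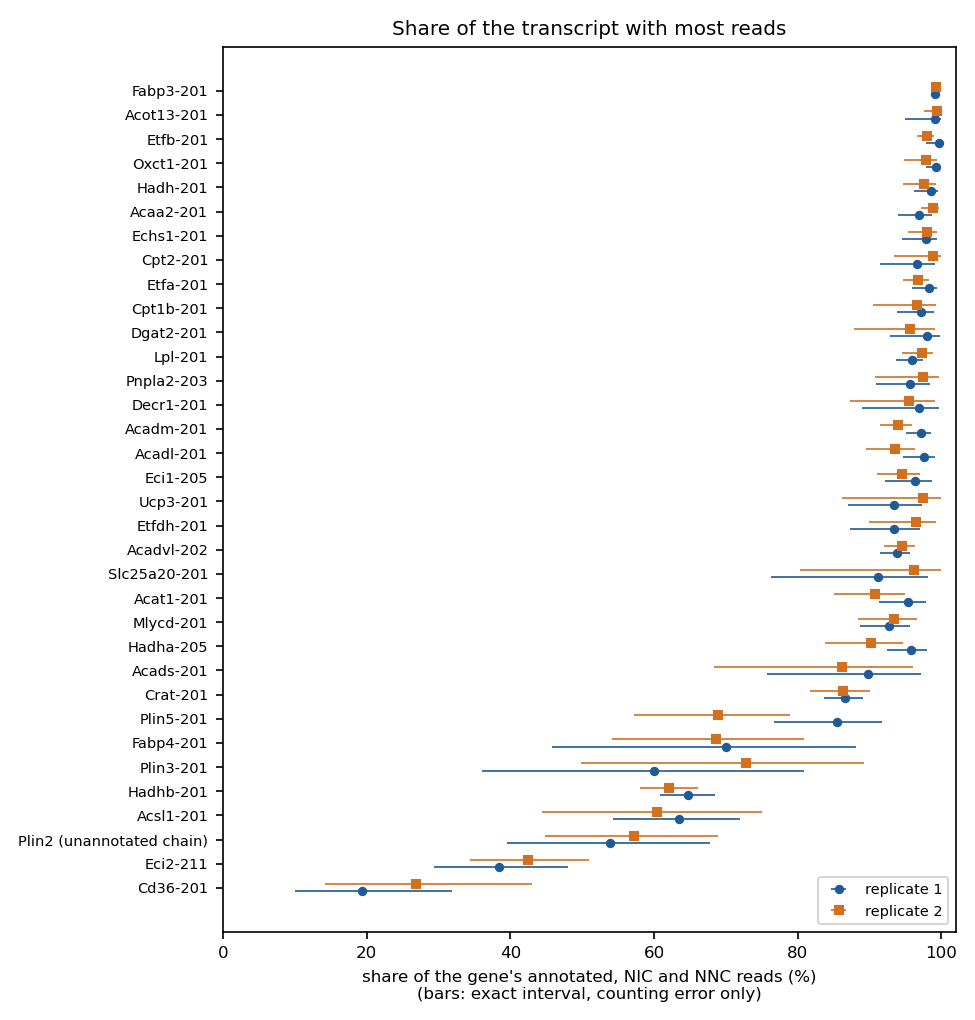
Share of the most-read transcript among the annotated, NIC and NNC reads of each of 34 members, in replicate 1 (circles) and replicate 2 (squares), with exact 95% intervals. In 26 members it lies above 80% in both libraries, and in Cd36 and Eci2 it lies below 50% in both.

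Of the 8 members with a lower share, some were split among transcripts with the same coding part. Hadhb-201 held 64.7% and 62.1%, and Hadhb-203, with 203 and 190 reads, took most of the rest; they differ by the donor site of the first exon and share a coding part of 475 codons. Acsl1-201 held 63.4% and 60.5%, beside Acsl1-203 with 34 and 11 reads, which starts from another first exon and encodes the same 699 residues. Cd36 was split among transcripts that differ in 5′ noncoding exons: Cd36-201 and Cd36-204 had 11 reads each in both libraries, and Cd36-203 had 5 and 4, all with the same 472 codons. In others the protein differed. Eci2-211, which encodes 391 residues, had 43 and 62 reads, and Eci2-201, which encodes 358, had 25 and 31. Fabp4-201, which encodes 132 residues, had 14 and 35 reads beside the retained-intron transcript Fabp4-202, without a coding part, with 5 and 14. Plin2 is described below, and the alternatives of Plin3, where Plin3-201 had 12 of 20 and 16 of 22 spliced reads, were not compared.

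Unannotated intron chains of the members numbered 384, of which 59, in 26 genes, were found in both libraries with the same splice sites. Only 8 chains in 5 genes (Crat, Plin2, Eci2, Cd36 and Fabp3) had 5 or more reads in each. The largest share belonged to Plin2, the coat protein of droplets in most tissues. A NIC chain held 28 of 52 spliced reads in replicate 1 (53.8%, exact 95% interval 39.5 to 67.8) and 40 of 70 in replicate 2 (57.1%, 44.7 to 68.9), and the annotated Plin2-201 had 23 and 23 reads. The chain keeps the introns of Plin2-201 and adds an intron at chr4:86648580-86657113 (minus strand) that is annotated in the noncoding transcript Plin2-208 alone. It thereby leaves the last annotated exon within the coding part and ends in a distal exon. In the annotated frame, 399 of the 425 codons of Plin2-201 are shared, and 26 others follow before a stop codon, which gives 425 codons again.

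The coding ends are shown because more spliced Plin2 reads were on this chain than on any annotated transcript. They are reference sequences from the GENCODE M21 transcripts, 5′ to 3′ on the minus strand, with 12 shared bases in lower case and the 78 bases that differ in capitals.
Plin2-201: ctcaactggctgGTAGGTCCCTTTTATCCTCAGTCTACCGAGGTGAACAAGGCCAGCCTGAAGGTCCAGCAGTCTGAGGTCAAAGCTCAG
Plin2 unannotated chain: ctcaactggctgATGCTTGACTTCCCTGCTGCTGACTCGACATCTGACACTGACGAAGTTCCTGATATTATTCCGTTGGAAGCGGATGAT

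**Figure D5:**
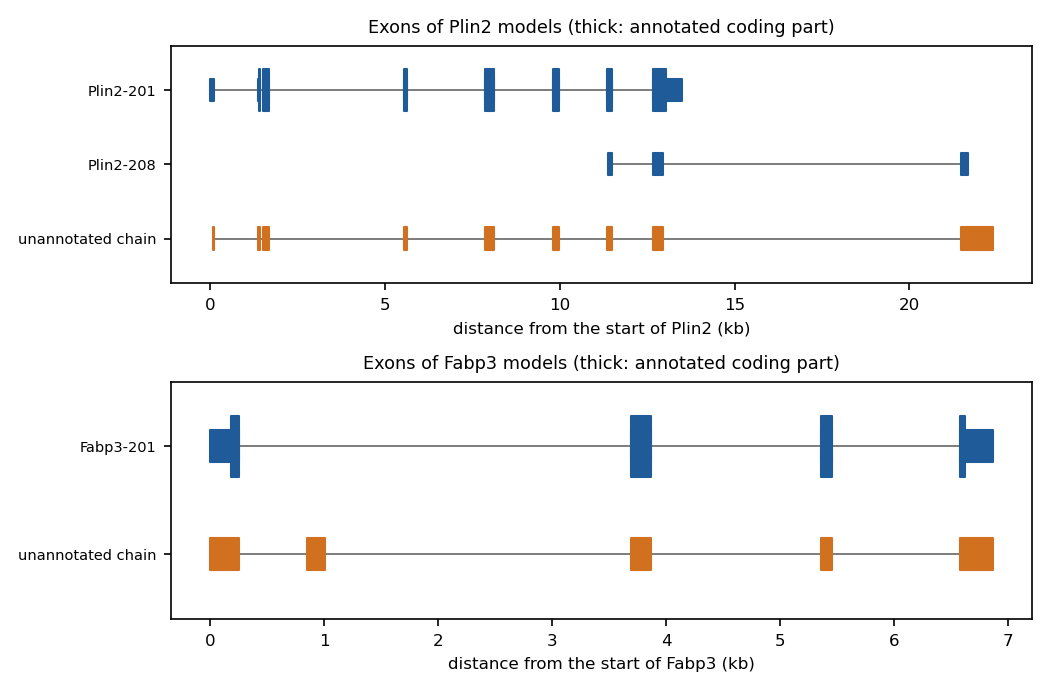
Exons of Plin2 and Fabp3 models drawn to scale by distance from the gene start; thick blocks are annotated coding parts. The unannotated Plin2 chain (28 and 40 reads) skips the end of the last exon of Plin2-201 for the distal exon of Plin2-208, and the unannotated Fabp3 chain (8 and 25 reads) has an added exon of 161 nt after the first.

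Crat had a NIC chain with 34 of 660 spliced reads in replicate 1 (5.15%, exact 95% interval 3.59 to 7.12) and 14 of 285 in replicate 2 (4.91%, 2.71 to 8.10). Its first donor lies 117 bases downstream of that of Crat-201, at the site used by Crat-213, a transcript annotated for nonsense-mediated decay. The models of this chain begin at position 30415308 in replicate 1 and 30415333 in replicate 2, downstream of the annotated start codon at 30415338 on the minus strand, and so do not contain it. A second chain, with 7 and 5 reads, uses an acceptor annotated in Crat-211, upstream of that of Crat-201 in a later intron. It adds 15 coding bases and leaves the frame open for 631 codons against 626. The 4 junctions are given as the last 12 bases of the upstream exon in lower case and the first 12 of the downstream exon in capitals. In the labels, late refers to the later intron.
Crat unannotated, first intron: aaaggagaccagGTAAAACCCCTG
Crat-201, first intron: gccagaaccgtgGTAAAACCCCTG
Crat unannotated, late acceptor: tacactgaccggATCTCCCACCCA
Crat-201, same donor: tacactgaccggGCCATCCGAGGG

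Fabp3 had an NNC chain of 8 of 1421 spliced reads (0.563%, exact 95% interval 0.243 to 1.11) and 25 of 4207 (0.594%, 0.385 to 0.876), so the intervals of its share overlapped in libraries whose Fabp3 level differed 2.33-fold. It inserts an exon at chr4:130309442-130309602 between the first and second exons of Fabp3-201, within the coding part, and its 161 nt are not a multiple of a codon. Eci2 had 3 chains with 16 and 20, 8 and 9, and 8 and 8 reads. All 3 differ from Eci2-201 only upstream of the coding part, at sites annotated in Eci2-207, Eci2-212 and Eci2-210, and leave its 358 codons whole. The chain with 16 and 20 reads shares the first donor of Eci2-211, and its frame from the start codon of Eci2-211 was not examined. Cd36 had a chain with 15 and 6 reads that adds a 5′ intron, chr5:17835672-17849656, annotated in Cd36-202, and leaves its 472 codons whole.

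Of 76 further genes of lipid metabolism listed by role, 61 had reads in both libraries and 8 had none in either. Of the 48 tested, 5 were higher, 16 lower and 27 not past the test, beside the same backgrounds. In peroxisomal oxidation 1 of 10 tested genes was higher (Scp2, a sterol carrier and thiolase, 189 and 241 CPM; 17.0% of all genes) and 6 were lower (26.3% of all genes). Genes of fatty acid synthesis were scarce: the 10 summed to 68.3 and 27.1 CPM, and Fasn, the synthase, had 13 and 0 reads. In glycerolipid synthesis 1 of 7 tested genes was higher (17.0% of all genes), 3 were lower (26.3% of all genes) and 3 did not pass. Agpat3 rose from 141 to 186 CPM. Gpam, the mitochondrial acyltransferase, fell from 132 to 44.5 CPM, Gpat4 from 47.7 to 9.68 CPM and Lpin1, a phosphatidate phosphatase, from 141 to 29.7 CPM. Fitm1, a muscle protein of droplet formation, rose from 256 to 459 CPM and exceeded each of the 4 droplet coats in both libraries. Gpihbp1, the endothelial anchor of lipoprotein lipase, rose from 19.7 to 38.7 CPM where Lpl fell. Of the 28 paralogues of members, 6 had no read, among them the liver and intestinal binding proteins Fabp1 and Fabp2.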

How the data were processed

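Per the labels, total RNA of 2 gastrocnemius samples was sequenced in long reads, and each library was processed separately. The authors deposited whole read counts per transcript model, not normalised; per the file headers and accompanying text, the reference was mm10, and TALON placed each read on a GENCODE M21 transcript or a new model. The aligner and read filters, and whether strand was used, were not given in the sources used here. CAST/EiJ reads were thus placed on a C57BL/6J reference, and the effect of this on levels was not tested.

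Reads of all classes were summed per gene and scaled to all reads of the library that lay in annotated genes; coordinates count from 1. Genes whose reads in the 2 libraries summed to at least 10 were tested by a two-sided Fisher exact test (scipy 1.17.1) with Benjamini-Hochberg adjustment. Log2 ratios used a pseudocount of 1 CPM. Unannotated models were matched by intron chain. Isoform shares needed 20 reads per library. The tests were tested on simulated data. The simulation held counting error alone. Shares carry exact 95% Clopper-Pearson intervals, and a count of 0 was limited at 3 counts. Reads may be copies of amplified molecules, so intervals and tests cover counting error only. Alternatives used edgeR 4.0.16 and DESeq2 1.42.0. Members, lists and roles were chosen with earlier results of these data known. Given in full were the 15 highest and 5 lowest members, those called beyond 2-fold and those with a recurrent unannotated chain of 5 or more reads; other genes in the text were named after their values were seen.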

Additional observations from a re-analysis of the deposited data

Results flagged for a closer look

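Models on the strand opposite to a member gene were outside the levels above. They held 90 reads over 18 members in replicate 1 and 455 reads over 29 members in replicate 2, above the 3 counts that a count of 0 allows. These were 0.416% and 0.515% of all antisense reads, which numbered 21649 and 88398. Acot2 had the most, with 5 and 93 antisense reads beside 8 and 6 on its own strand. Hadhb followed with 14 and 60, Cd36 with 6 and 44, Slc25a20 with 1 and 40 and Acacb with 26 and 39. Of these antisense reads over members, 4 in replicate 1 and 5 in replicate 2 were spliced. Without stated use of strand, reads of a gene and of its antisense partner cannot be told apart.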

How the results depend on the processing

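Against 8 members higher and 19 lower (17.0% and 26.3% of all genes), annotated transcripts alone gave 4 higher (13.4%). DESeq2 size factors gave 11 lower (16.2%). In edgeR's exact test, a coefficient of variation of 0.2 gave 3 and 5 (5.98% and 9.49%). One of 0.4 gave 0 and 0 (0.069% and 0.023%). The other settings moved neither count by more than 1.5 times. Annotated transcripts alone raised the summed level to 9681 CPM and turned its order (10049 CPM in replicate 1 and 9314 in replicate 2), and 2 reads per library left 23 recurrent chains. Without 1 library, the summed level was 7786 to 8482 CPM, the annotated share 77.5 to 85.0% and antisense reads 90 to 455. Of 201 recomputed log2 ratios, leaving out pseudocounts of 0.1 and 10, which cannot change the test, 159 kept direction and call, 18 lost the call, 12 gained one and 12 reversed. On annotated transcripts alone, Cd36 went to -0.72, Acadl -0.59, Acadm -0.25, Echs1 -0.026 and Plin2 -0.37. Without incomplete and genomic reads, Cd36 went to -0.62 and Acadl to -0.24; without single-exon ones, a setting chosen after seeing the data, Acadl to -0.018. Under TMM and DESeq2 scaling, Acads went to 0.11 and 0.13 and Decr1 to 0.020 and 0.045. The cause was not tested. No paired analysis was possible because there is 1 group. Cpt1a, Acot2 and Lipe had under 20 reads over both libraries, and the intervals of their ratios are wide.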
